A study of Mus musculus with 20 samples.

Results

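The genes described here are Pou5f1, Sox2, Nanog, Sall4, Lin28a, Utf1, Dppa2, Dppa4 and Dppa5a, the core pluripotency factors and developmental pluripotency-associated (DPPA) genes. They were taken by symbol, and all 9 were found among the 25199 genes in the 3 raw count tables. The study measured polyadenylated RNA in mice and mouse embryonic stem cells (mESCs) lacking Zmym2, a zinc finger protein that binds transcriptional corepressors. Single whole embryos at embryonic day 8.5 formed the first set, with 6 Zmym2-/- and 6 Zmym2+/+ embryos on the C57BL/6 background, 3 males and 3 females of each genotype. By their names, 7 embryos fall under 3 prefixes shared by both genotypes, and the 3 Zmym2-/- males fall under a prefix that no other embryo has; the prefix was read as the litter, which the labels do not state. The mutant allele carries a frameshift in the first coding exon, and the embryos sequenced were chosen for having no visible abnormality. V6.5 mESCs (C57BL/6 x 129/SvJae) formed the second set, as 2 Zmym2 knockout (KO) and 2 control libraries in serum with LIF on gelatin, and 2 KO and 2 control libraries of embryoid bodies (EBs) at day 3 of differentiation. Both genotypes of these lines had received Cas9 with a guide RNA, directed at Zmym2 in KO and non-targeting (NT) in controls, and both were expanded as clonal lines. The labels do not say whether the 2 libraries of a group came from separate clones or cultures, so p-values in the lines measure only the spread between these libraries.

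POU5F1, SOX2 and NANOG are the transcription factors at the centre of the pluripotency network, and they bind each other's regulatory regions together with partners such as SALL4. Their genes are expressed in the inner cell mass, epiblast and embryonic stem cells, and most are silenced as the germ layers form, while Sox2 continues in neural tissue and Lin28a and Sall4 continue widely in the early embryo. DPPA2 and DPPA4 are partner proteins that bind chromatin at developmental promoters and, in mESCs, act upstream of genes of the 2-cell embryo.

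The libraries held between 32016880 and 64057608 counts assigned to genes. Zmym2 RNA was at 29.4 and 27.6 CPM (counts scaled to the library's total) in KO mESCs, against 68.1 and 72.0 CPM in NT mESCs. It was at 31.9 and 30.3 CPM in KO EBs, against 91.2 and 91.7 CPM in NT EBs, and so was lower in every KO line library. In embryos Zmym2 was between 25.4 and 67.1 CPM in Zmym2-/- and between 50.3 and 125 CPM in Zmym2+/+, and these ranges overlapped. Its log2 difference in embryos was -0.91 (SE 0.25), with an adjusted p of 0.226 (edgeR quasi-likelihood, Benjamini-Hochberg). A frameshift allele can still be transcribed, so this level is a limited check of the genotype.

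Of the 9 genes, 5 were matched in the RefSeq promoter table of build GRCm38.p6, which gives 250 bases before and 50 after each start. The 3 shown carry, in capitals, the letters POU5F1 and SOX2 are known to recognise. For Nanog the capitals mark the reverse strand match to a joined motif, the SOX core CATTGT followed after 1 base of any kind by the octamer core ATGCAAA, at chr6:122707239-122707538 on the plus strand. For Sox2 they mark the octamer core ATGCAAA at chr3:34649745-34650044 on the plus strand, and for Lin28a the SOX core CATTGT at chr4:134018767-134019066, read on the minus strand.
Nanog: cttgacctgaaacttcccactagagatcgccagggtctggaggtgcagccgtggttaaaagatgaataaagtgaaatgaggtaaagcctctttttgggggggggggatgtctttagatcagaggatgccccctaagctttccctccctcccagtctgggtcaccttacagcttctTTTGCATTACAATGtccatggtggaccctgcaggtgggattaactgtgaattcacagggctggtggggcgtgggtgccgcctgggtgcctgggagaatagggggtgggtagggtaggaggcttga
Sox2: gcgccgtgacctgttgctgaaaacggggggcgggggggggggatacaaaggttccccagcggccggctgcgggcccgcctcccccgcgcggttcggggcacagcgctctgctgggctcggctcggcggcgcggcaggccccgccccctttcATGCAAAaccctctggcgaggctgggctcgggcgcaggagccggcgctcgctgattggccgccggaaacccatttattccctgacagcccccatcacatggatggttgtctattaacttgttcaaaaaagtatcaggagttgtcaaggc
Lin28a: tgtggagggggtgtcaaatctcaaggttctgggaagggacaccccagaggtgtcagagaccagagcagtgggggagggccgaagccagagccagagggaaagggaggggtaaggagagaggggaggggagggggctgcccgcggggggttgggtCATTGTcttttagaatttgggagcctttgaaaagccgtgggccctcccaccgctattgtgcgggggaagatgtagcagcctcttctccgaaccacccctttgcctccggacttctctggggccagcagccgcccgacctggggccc
Searched on both strands, the octamer core was in 4.63% of the 32851 promoters of this length, and the SOX core was in 12.6%. The joined motif, which contains both cores, was in 2 promoters, and both were the overlapping Nanog entries. The Utf1 promoter and the first Pou5f1 promoter held none of the 3 motifs. A match describes the letters only.

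Per kilobase, the genes spanned a wide range in mESCs. Deposited RPKM values, which are reads scaled to gene length and library size, averaged 2230 ± 361 in KO and 3053 ± 229 in NT mESCs (SD, n = 2 each) for Dppa5a, which encodes a KH-domain RNA-binding protein. Pou5f1 followed at 751 ± 13.2 RPKM in KO and 717 ± 14.7 RPKM in NT mESCs. In NT mESCs the order went on with Utf1, Sox2, Nanog, Dppa4, Lin28a, Sall4 and Dppa2, with no overlap between neighbours. In KO mESCs the neighbours Dppa4 (130 ± 6.45 RPKM) and Nanog (129 ± 19.9 RPKM) overlapped, as did Dppa2 (48.7 ± 7.31 RPKM) and Sall4 (42.4 ± 2.09 RPKM). In EBs Pou5f1 had the highest mean, at 632 ± 7.18 RPKM in KO and 659 ± 14.1 RPKM in NT, and in NT EBs its range overlapped that of Dppa5a. Reads of Dppa5a could be shared with near-identical pseudogene copies, and Nanog also has pseudogenes, so their levels carry that uncertainty.

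Loss of Zmym2 in mESCs was compared first, to ask whether the pluripotency network was altered before differentiation. Expression of Dppa2, Lin28a, Sall4 and Dppa4 was higher in KO than in NT mESCs, and that of Nanog, Dppa5a and Utf1 was lower. Pou5f1 and Sox2 did not pass the test. The 4 higher genes stand beside 10.3% of all 20159 genes called higher, and the 3 lower genes beside 8.94% called lower. The median log2 difference was 0.07 over the 9 genes and 0.01 over all genes. In these bulk libraries fewer cells of a type and less RNA per cell cannot be told apart.

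**Figure D1:**
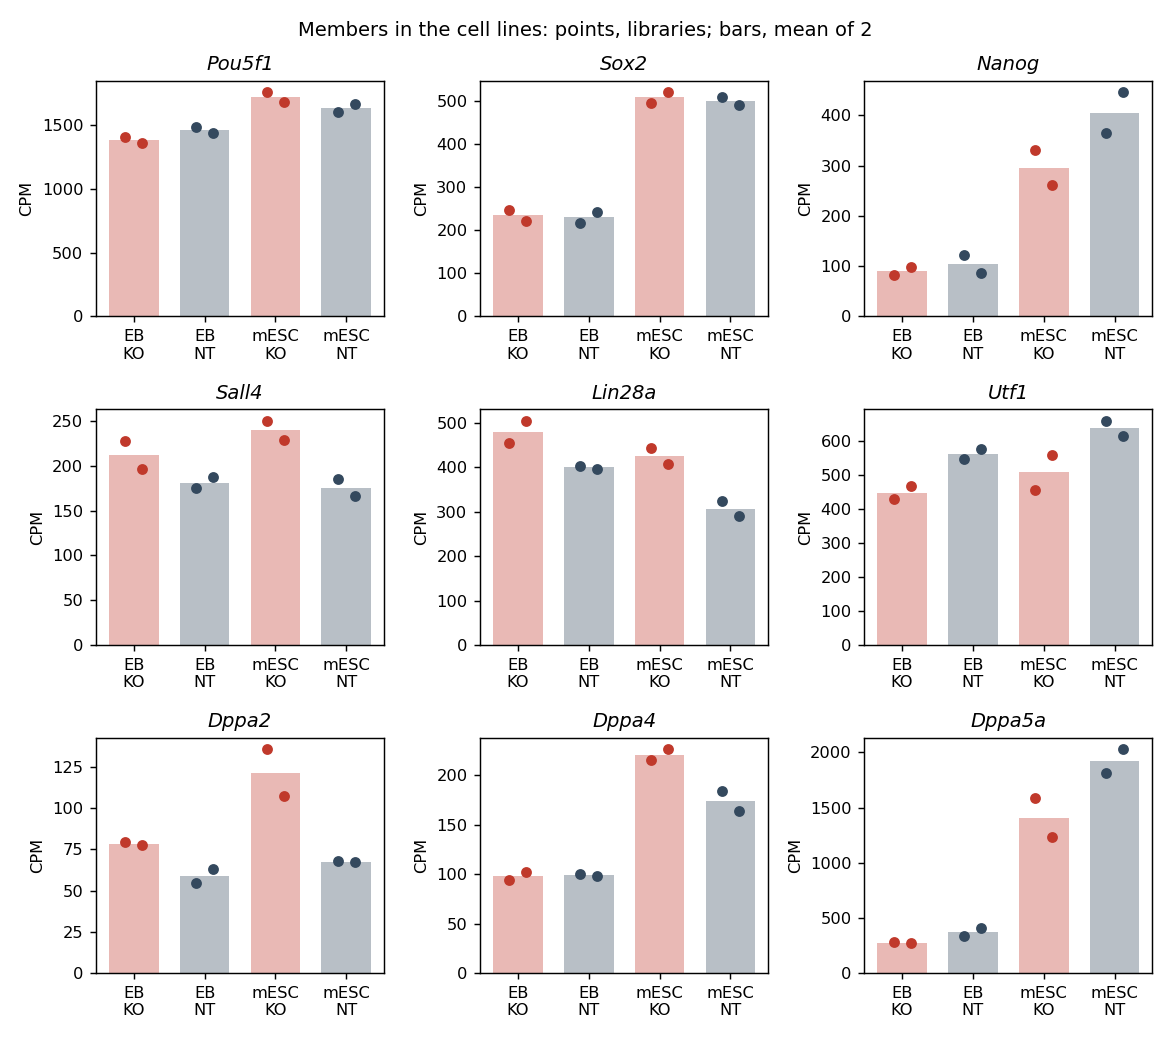
Expression of the 9 genes in each line library, in CPM on linear axes from 0, with EBs left of mESCs and KO left of NT within each. Points are single libraries and bars are means of 2 libraries; Dppa2 was at 136 and 107 CPM in KO mESCs, above both NT libraries.

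Dppa2 was at 136 and 107 CPM in KO mESCs, against 67.7 and 67.4 CPM in NT mESCs. Both KO libraries were above both NT libraries. Its log2 difference was 0.85 (SE 0.11), a 1.80-fold higher level, with an adjusted p of 1.31e-04 in edgeR's quasi-likelihood test. Dppa4, its neighbour on chromosome 16 (chr16:48283733-48294237, with Dppa2 at chr16:48303908-48319723, GRCm38), was at 215 and 226 CPM in KO mESCs, against 184 and 164 CPM in NT mESCs. The groups did not overlap, and the log2 difference was 0.35 (SE 0.08, adjusted p = 0.0106, edgeR). This call was lost without NT mESC library 2, at 0.27 with an adjusted p of 0.111.

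Lin28a, whose protein blocks maturation of let-7 microRNAs, was at 444 and 407 CPM in KO mESCs, against 323 and 290 CPM in NT mESCs. Sall4, a zinc finger factor of the same network, was at 250 and 229 CPM in KO mESCs, against 185 and 166 CPM in NT mESCs. For both genes each KO library was above each NT library. The log2 difference was 0.47 (SE 0.08, adjusted p = 0.00133) for Lin28a and 0.45 (SE 0.09, adjusted p = 0.00259) for Sall4 in edgeR. Both calls, and those of Dppa2 and Dppa5a, held when any 1 of the 4 libraries was left out, and limma on log2(RPKM + 0.1) kept those of Dppa2, Lin28a and Sall4 but none of the other 4, at similar log2 differences and adjusted p of 0.0649 to 0.135.

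Nanog was at 331 and 261 CPM in KO mESCs, against 365 and 446 CPM in NT mESCs, which did not overlap although the closest libraries were near each other. Its log2 difference was -0.45 (SE 0.12, adjusted p = 0.0146, edgeR). That call was lost without NT library 2 (-0.30, adjusted p = 0.0644) and without KO library 2 (-0.28, adjusted p = 0.0755). Dppa5a was at 1584 and 1234 CPM in KO mESCs, against 1812 and 2029 CPM in NT mESCs. Both KO libraries were lower, with a log2 difference of -0.45 (SE 0.10, adjusted p = 0.00802, edgeR), which was -0.27 without KO library 2. Utf1, a chromatin-associated factor of pluripotent cells, was at 456 and 558 CPM in KO mESCs, against 659 and 614 CPM in NT mESCs. Its log2 difference was -0.33 (SE 0.09, adjusted p = 0.0233, edgeR) with no overlap, and the call was lost without NT library 1 (-0.28, adjusted p = 0.0697) or KO library 1 (-0.19, adjusted p = 0.161).

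Pou5f1, the POU-domain factor of the network, was at 1761 and 1683 CPM in KO mESCs, against 1609 and 1668 CPM in NT mESCs. The log2 difference was 0.07 (95% interval -0.07 to 0.22, adjusted p = 0.507, edgeR), although the libraries did not overlap. Sox2, its HMG-box partner, was at 495 and 519 CPM in KO mESCs, against 508 and 490 CPM in NT mESCs. These overlapped, with a log2 difference of 0.03 (95% interval -0.13 to 0.18, adjusted p = 0.854, edgeR). Sox2 lies within the same-strand transcript Sox2ot, and its reads could not be separated from that gene here. Without overlap between groups, 8 of the 9 genes differed, where 60.1% of all genes did so with 2 libraries a side.

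**Figure D2:**
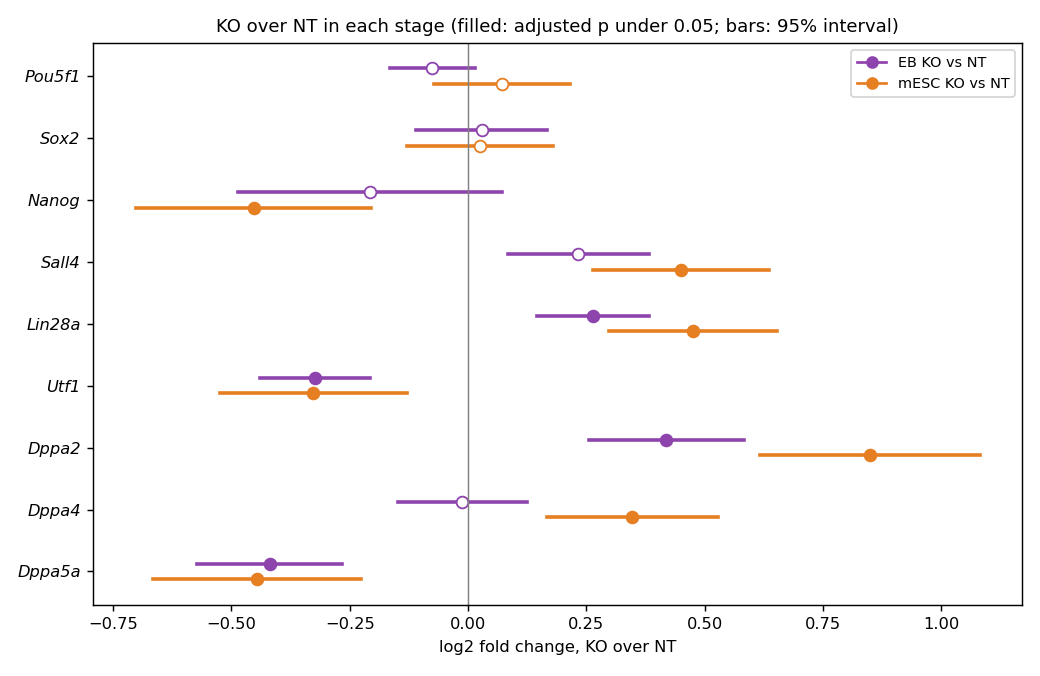
Log2 difference of KO over NT for each gene in EBs (upper) and in mESCs (lower), with 95% intervals from edgeR and filled points where the adjusted p is under 0.05. Dppa2 and Lin28a were above 0 and Dppa5a and Utf1 below 0 in both, and Pou5f1 and Sox2 had intervals that include 0 in both.

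The same comparison in EBs asked how genotypes differed once differentiation had begun. Dppa2 and Lin28a were higher in KO EBs, and Utf1 and Dppa5a were lower. The 2 higher genes stand beside 4.62% of 20142 genes called higher, and the 2 lower genes beside 2.77% called lower. The median log2 difference was -0.01 over the 9 genes and 0.01 over all genes. Groups did not overlap for 6 of the 9 genes, against 50.7% of all genes.

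Dppa2 was at 79.3 and 78.0 CPM in KO EBs, against 54.7 and 63.1 CPM in NT EBs. Lin28a was at 455 and 505 CPM in KO EBs, against 404 and 397 CPM in NT EBs. Each KO library was higher in both genes. On the log2 scale KO minus NT was 0.42 (SE 0.07, adjusted p = 0.0049) for Dppa2 and 0.26 (SE 0.05, adjusted p = 0.0112) for Lin28a in edgeR, and Lin28a had an adjusted p of 0.0609 when all 8 line libraries shared a fit. Utf1 was at 428 and 467 CPM in KO EBs, against 545 and 576 CPM in NT EBs. Dppa5a was at 284 and 272 CPM in KO EBs, against 340 and 406 CPM in NT EBs. Neither gene's groups overlapped. KO minus NT on the log2 scale was -0.32 (SE 0.05, adjusted p = 0.00299) for Utf1 and -0.42 (SE 0.07, adjusted p = 0.00318) for Dppa5a in edgeR. In limma on log2(RPKM + 0.1) none of these 4 calls passed, with adjusted p of 0.0825 to 0.128, while the log2 differences were 0.44 for Dppa2, 0.28 for Lin28a, -0.31 for Utf1 and -0.40 for Dppa5a.

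Sall4 was at 228 and 196 CPM in KO EBs, against 175 and 187 CPM in NT EBs. The libraries did not overlap, but the log2 difference of 0.23 (SE 0.07) had an adjusted p of 0.0604 in edgeR. It passed without NT library 2 (0.28, adjusted p = 0.0185) or KO library 2 (0.33, adjusted p = 2.18e-05). Nanog was at 81.5 and 98.3 CPM in KO EBs, against 121 and 86.5 CPM in NT EBs. These overlapped, with a log2 difference of -0.21 (95% interval -0.49 to 0.07, adjusted p = 0.403, edgeR). Single libraries decided this value, which was -0.43 without NT library 2 (adjusted p = 0.00115), -0.35 without KO library 2 (adjusted p = 3.07e-04) and 0.05 without NT library 1. Dppa4 was at 94.1 and 102 CPM in KO EBs, against 99.9 and 98.4 CPM in NT EBs. The groups overlapped (-0.01, 95% interval -0.15 to 0.13, adjusted p = 0.945, edgeR). Pou5f1 and Sox2 had log2 differences of -0.08 (adjusted p = 0.337) and 0.03 (adjusted p = 0.858) in edgeR.

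Differentiation to EBs was compared within each genotype. In KO cells 6 of the 9 genes fell and none rose, beside 22.1% of 18926 genes called lower and 23.1% called higher. In NT cells 5 fell and 1 rose, beside 23.6% called lower and 23% called higher. The median log2 change over the 9 genes was -0.63 in KO and -0.20 in NT cells, and that over all genes was -0.01 in KO and 0.00 in NT cells. These changes use the same libraries as the comparisons of KO with NT above.

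**Figure D3:**
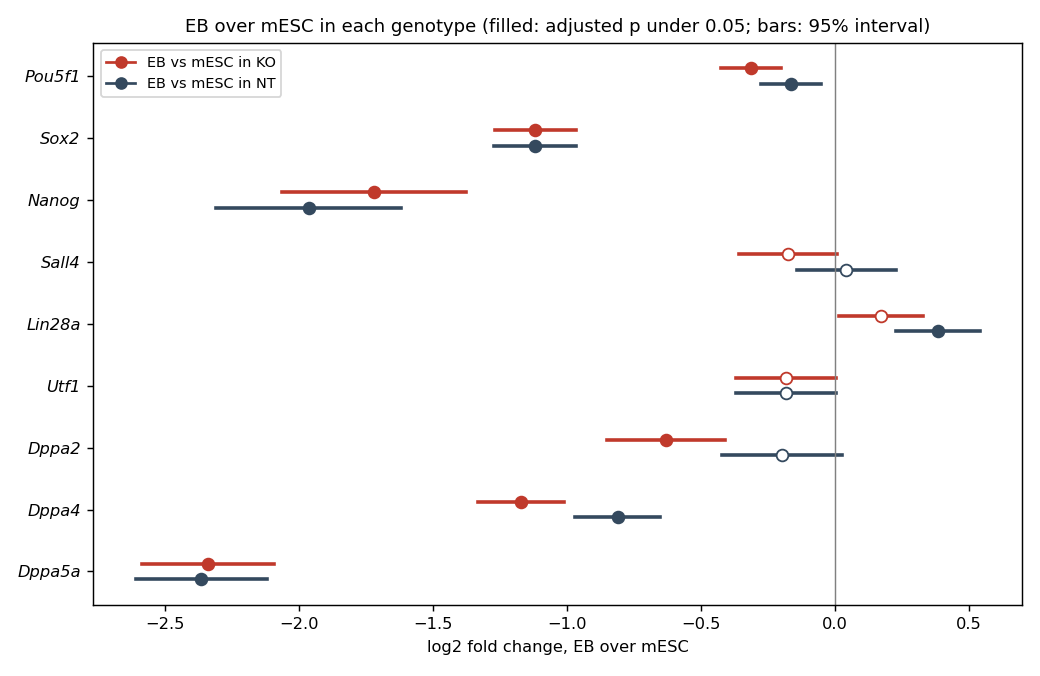
Log2 change of EBs over mESCs for each gene in KO (upper) and in NT lines (lower), with 95% intervals from edgeR and filled points where the adjusted p is under 0.05. Dppa5a and Nanog had the most negative values in both genotypes, and Dppa4 and Dppa2 were more negative in KO.

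Dppa5a was at 284 and 272 CPM in KO EBs, against 1584 and 1234 CPM in KO mESCs. It was at 340 and 406 CPM in NT EBs, against 1812 and 2029 CPM in NT mESCs. The log2 change was -2.34 (SE 0.11) in KO and -2.36 (SE 0.11) in NT cells. Nanog fell by 1.72 on the log2 scale (SE 0.16) in KO and by 1.96 (SE 0.16) in NT cells. Sox2 fell by 1.12 (SE 0.07) in each genotype, at 246 and 222 CPM in KO EBs against 495 and 519 CPM in KO mESCs. In these 3 genes all EB libraries were below all mESC libraries of their genotype, with adjusted p of 2.34e-06 or less in edgeR.

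Dppa4 fell by 1.17 on the log2 scale (SE 0.07, adjusted p = 8.92e-08) in KO and by 0.81 (SE 0.07, adjusted p = 1.77e-06) in NT cells in edgeR. Dppa2 fell by 0.63 (SE 0.10, adjusted p = 2.64e-04) in KO cells, and its change of -0.20 in NT cells (SE 0.10, adjusted p = 0.141) did not pass in edgeR. Pou5f1 was at 1409 and 1366 CPM in KO EBs and 1487 and 1442 CPM in NT EBs, and fell by 0.31 in KO (adjusted p = 3.02e-04) and by 0.16 in NT cells (adjusted p = 0.0201) in edgeR. The NT call for Pou5f1 was lost without mESC library 2 (-0.14, adjusted p = 0.107) or EB library 2 (-0.14, adjusted p = 0.148). Lin28a rose in NT cells, by 0.39 (SE 0.07, adjusted p = 7.77e-04), and had 0.17 (SE 0.07, adjusted p = 0.0698) in KO cells in edgeR. Sall4 had changes of -0.17 (KO) and 0.04 (NT) and Utf1 of -0.18 in each, none of which passed. In KO cells Lin28a passed without mESC library 1 (0.24, adjusted p = 0.0371) or EB library 1 (0.25, adjusted p = 0.0449), Utf1 without mESC library 1 (-0.32, adjusted p = 0.0043) and Sall4 without EB library 1 (-0.29, adjusted p = 0.0378). In NT cells Utf1 passed when KO mESC library 1 (adjusted p = 0.0257) or 2 (adjusted p = 0.0261) left the shared fit, and Dppa2 when KO mESC library 2 did (adjusted p = 0.0499), all by edgeR. With the line number, which the count columns carry across mESCs and EBs, as a block, the changes in KO cells also passed for Sall4 (-0.18, adjusted p = 0.0288), Lin28a (0.17, adjusted p = 0.0283) and Utf1 (-0.17, adjusted p = 0.0211), and those in NT cells for Utf1 (-0.18, adjusted p = 0.0151) and Dppa2 (-0.20, adjusted p = 0.0342), by edgeR. This blocked fit was added after seeing the data.

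The difference between the genotypes in this change was tested directly. Without a block none of the 9 genes passed in edgeR, where 5.25% of all genes did. With the line number as a block Dppa4 (-0.36, SE 0.10, adjusted p = 0.00825) and Dppa2 (-0.42, SE 0.11, adjusted p = 0.00855) passed in edgeR, beside 12.3% of all genes. That fit was added after seeing the data, and the values of these libraries cannot decide the pairing it uses. Without the block, at an unadjusted p under 0.05 there were 2, Dppa4 and Dppa2, beside 19.7% of all genes. Dppa4 had a difference of -0.36 (SE 0.10, adjusted p = 0.0643) and Dppa2 of -0.43 (SE 0.14, adjusted p = 0.112) in edgeR, both more negative in KO. DESeq2 called both, with adjusted p of 0.0238 and 0.0476. Without NT mESC library 1 Dppa4 passed at -0.45 (adjusted p = 0.0356), and without KO mESC library 2 Dppa2 passed at -0.59 (adjusted p = 0.0137). Pou5f1, Lin28a and Sall4 had differences of -0.15, -0.21 and -0.22, Nanog 0.24, and Sox2, Utf1 and Dppa5a lay between 0.00 and 0.02.

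The rest of the pluripotency network was read from lists chosen with earlier results of these data known. Their counts in mESCs stand beside 10.3% of all genes called higher and 8.94% called lower. Of 12 naive factors, 2 were higher and 5 lower in KO mESCs (median -0.25). Klf4, a Krüppel-like factor of naive cells, was at 101 ± 9.09 CPM in KO and 374 ± 29.6 CPM in NT mESCs (SD, n = 2 each), a log2 difference of -1.88. Of 11 formative and primed genes, 10 were higher and 1 lower (median 1.32), with Otx2, a driver of the exit from naive pluripotency, at 31.4 ± 4.72 CPM in KO and 5.86 ± 0.274 CPM in NT mESCs (SD, n = 2 each). Of 17 network partners and targets, 12 were higher and 2 lower (median 0.44). Dnmt3l, a cofactor of de novo DNA methylation, had a log2 difference of 1.32 and Foxd3, a forkhead repressor, of 0.83. Of 12 tested paralogs of the 9 genes, 3 were higher and 1 lower, with Pou3f1, a POU factor of primed cells, at 1.68 and Sall2, a spalt-like factor, at 1.02. Pou3f1 and Sall2 are also among the formative and primed genes above.

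Of 14 tested 2-cell embryo genes, known to lie downstream of DPPA2 and DPPA4, 13 were higher in KO mESCs. Zscan4c was at 7.19 and 21.8 CPM in KO mESCs, against 0.0429 and 0.112 CPM in NT mESCs, and its near-identical copies may share reads. In EBs 12 of 15 were higher, beside 4.62% of all genes. Over both line comparisons Dppa3, a maternal and germ cell factor, had log2 differences of 1.85 in mESCs and 2.42 in EBs. From mESCs to EBs all 12 naive factors fell in each genotype, by a median of -4.40 in KO and -4.67 in NT cells on the log2 scale. Of all genes, 22.1% were called lower in KO and 23.6% in NT cells. In EBs 3 naive factors were higher and 1 lower in KO, with Klf2 at 1.57 and Nr0b1 at -1.15, and of the formative and primed genes 4 were lower and none higher. Of all genes in EBs, 2.77% were called lower.

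In whole embryos at embryonic day 8.5 the comparison asked whether pluripotency RNA persisted without Zmym2. None of the 9 genes passed at an adjusted p under 0.05 in edgeR, where 0.524% of 22729 genes did, and DESeq2 called none. At an unadjusted p under 0.05 there were 2, Nanog and Dppa2, beside 12% of all genes. The difference was positive for 8 of the 9 genes, and its median was 0.92 over them and 0.02 over all genes. Lin28a had the highest mean per kilobase, with 242 ± 74.8 RPKM in Zmym2-/- and 188 ± 79.8 RPKM in Zmym2+/+ embryos (SD, n = 6 each). In Zmym2-/- embryos its range overlapped that of Pou5f1. Dppa2 had the lowest mean, with 0.934 ± 0.679 RPKM in Zmym2-/- and 0.299 ± 0.282 RPKM in Zmym2+/+ embryos. Its range overlapped that of the next gene, Dppa4 in Zmym2-/- and Nanog in Zmym2+/+ embryos.

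**Figure D4:**
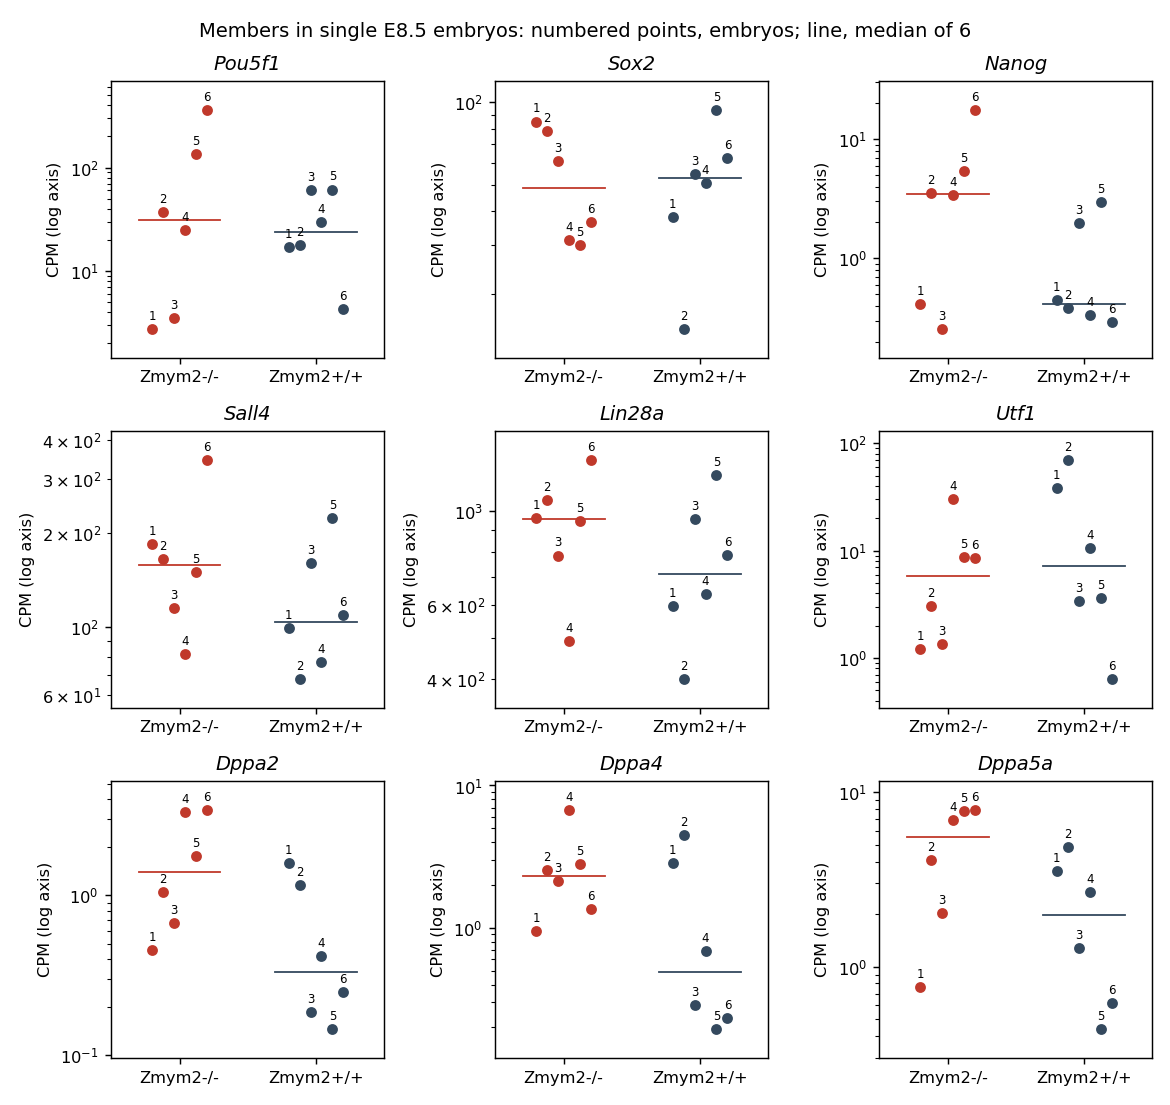
Expression of the 9 genes in single embryos at embryonic day 8.5, in CPM on log axes, with Zmym2-/- left of Zmym2+/+. Each point is 1 embryo with its number and each line is the median of 6; Zmym2-/- embryo 6 stands at 364 CPM for Pou5f1, and 4 Zmym2-/- embryos lie above every Zmym2+/+ embryo for Nanog.

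Nanog had a lowest, median and highest value of 0.255, 3.44 and 17.7 CPM in Zmym2-/- embryos, against 0.294, 0.415 and 2.96 CPM in Zmym2+/+ embryos. Of the Zmym2-/- embryos 4 lay above every Zmym2+/+ embryo, and the lowest of all was Zmym2-/-. The log2 difference was 2.26 (SE 0.93, adjusted p = 0.382, edgeR). Without Zmym2-/- embryo 6 it was 1.27. Under the 3 shared name prefixes Nanog was at 3.37 CPM in the Zmym2-/- embryo, against 0.445 and 0.333 CPM in 2 Zmym2+/+ embryos, at 5.38 CPM in the next Zmym2-/- embryo, against 0.385 CPM in its Zmym2+/+ embryo, and at 17.7 CPM in the last Zmym2-/- embryo, against 1.98 CPM in its Zmym2+/+ embryo. With the prefix as a block over these 7 embryos the log2 difference was 3.32 (SE 0.31, adjusted p = 0.136, edgeR). Dppa2 had 0.459, 1.41 and 3.43 CPM in Zmym2-/- embryos, against 0.145, 0.332 and 1.60 CPM in Zmym2+/+ embryos. All 6 Zmym2-/- embryos were above the Zmym2+/+ median and 3 above every Zmym2+/+ embryo, with a log2 difference of 1.52 (SE 0.67, adjusted p = 0.396, edgeR).

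Pou5f1 had 2.74, 30.9 and 364 CPM in Zmym2-/- embryos, against 4.28, 23.6 and 61.3 CPM in Zmym2+/+ embryos. Embryos 5 and 6 of Zmym2-/- were above every Zmym2+/+ embryo and embryos 1 and 3 below every one. Its log2 difference was 1.58 (SE 1.00, adjusted p = 0.548, edgeR), was 0.36 without embryo 6, and turned to -0.90 without embryos 5 and 6, an exclusion chosen because earlier results of these data set those 2 apart. Those 2 embryos also held the highest summed motile cilia markers, at 31.8 and 117 CPM, against at most 9.04 CPM in any other embryo. Their summed yolk sac markers were the highest, at 4928 and 5142 CPM against at most 2887 CPM in any other, and their summed cardiac markers the lowest, at 202 and 23.5 CPM against at least 269.9 CPM. Of 6 neural plate markers, Pax6 was at 1.09 and 0.257 CPM in them and at 8.16 CPM or more in the others. Sox1 and Pou3f2 were also lowest in them, but Sox3, Nes and Hes5 were not. Their summed neural plate markers were at 58.3 and 109 CPM, against 46.3 to 250 CPM in the others. Over the 12 embryos, on a log2 scale and as a description, Pou5f1 had a Pearson r of -0.80 with cardiac, 0.76 with cilia and 0.62 with yolk sac markers. It was -0.76 with fibroblast, 0.68 with caudal epiblast and -0.66 with primitive erythroid markers. Within Zmym2+/+ embryos alone it was -0.35 with cardiac, 0.68 with cilia and -0.35 with yolk sac markers, so the yolk sac value changed sign. The part of these markers in the result was not tested.

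Dppa4 had 0.946, 2.33 and 6.75 CPM in Zmym2-/- embryos, against 0.194, 0.491 and 4.51 CPM in Zmym2+/+ embryos. All 6 Zmym2-/- embryos were above the Zmym2+/+ median, but the groups overlapped (0.92, SE 0.77, adjusted p = 0.658, edgeR). Its difference was 0.42 without Zmym2-/- embryo 4 and 1.71 without Zmym2+/+ embryo 2. Dppa5a had 0.760, 5.51 and 7.92 CPM in Zmym2-/- embryos, against 0.436, 1.98 and 4.87 CPM in Zmym2+/+ embryos. Its difference was 1.14 (SE 0.64, adjusted p = 0.492, edgeR). Utf1 had 1.20, 5.82 and 30.5 CPM in Zmym2-/- embryos, against 0.635, 7.12 and 70.3 CPM in Zmym2+/+ embryos, and it was the gene with a negative difference (-1.25, SE 1.01, adjusted p = 0.645, edgeR). That value was -2.21 without Zmym2-/- embryo 4 and -0.35 without Zmym2+/+ embryo 2.

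Summed trophoblast markers were at 277 CPM in Zmym2-/- embryo 4 and at 301, 614 and 138 CPM in Zmym2+/+ embryos 1, 2 and 4, against 49.1 CPM or less in the other 8. All 4 have names of the H series, which holds more Zmym2+/+ than Zmym2-/- embryos. Utf1 and these markers had a Pearson r of 0.96 over the 12 embryos on a log2 scale, given as a description. Dppa4, Dppa5a and Dppa2 also ran with these markers. Over the 12 embryos the Pearson r was 0.54 for Dppa4, 0.55 for Dppa5a and 0.45 for Dppa2. Within Zmym2+/+ embryos it was 0.92 for Dppa4, 0.94 for Dppa5a and 0.84 for Dppa2. Without those 4 embryos, an exclusion chosen after seeing the data, Dppa4 had a log2 difference of 3.00 (SE 0.47, adjusted p = 0.0257, edgeR), and Utf1 of 0.82. The exclusion took out the Zmym2+/+ embryos highest in Dppa4 (2.85, 4.51 and 0.693 CPM) and left those at 0.288 CPM or less. It also took out the highest Zmym2-/- embryo (6.75 CPM), so this call depends on the exclusion. The part of these markers in the result was not tested. Of 8 primordial germ cell markers, Nanos3 was at 0.226 CPM or less and Prdm14 at 0.166 CPM or less in every embryo. Tfap2c, Kit, Ifitm3, Prdm1 and Dnd1, which other cell types also express, were at 1.22 CPM or more in every embryo, and Dppa3 was at 1.75 to 4.31 CPM in Zmym2-/- embryos, against 0.0485 to 1.13 CPM in Zmym2+/+ embryos. The 8 summed to between 81.2 and 268 CPM in Zmym2-/- and between 71.1 and 279 CPM in Zmym2+/+ embryos, and their part in the results was not tested.

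**Figure D5:**
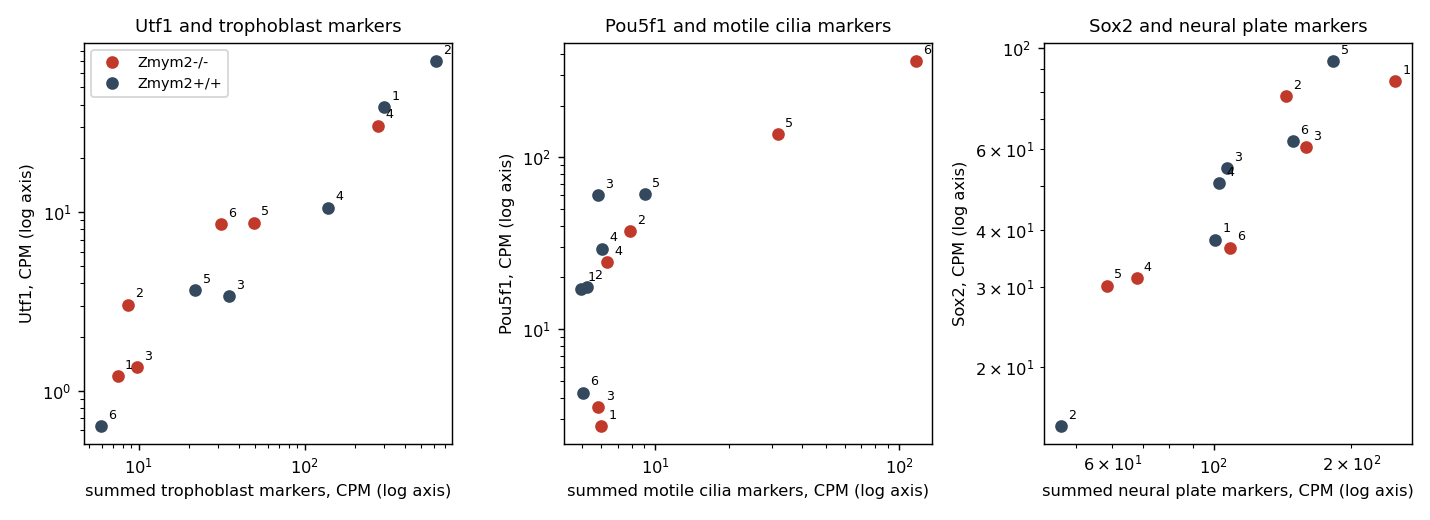
Utf1 against summed trophoblast markers, Pou5f1 against summed motile cilia markers and Sox2 against summed neural plate markers in the 12 embryos, in CPM on log axes, with Zmym2-/- in red, Zmym2+/+ in blue and the embryo's number beside each point. Utf1 ran with trophoblast markers (Pearson r 0.96) and Sox2 with neural plate markers (r 0.93), and Zmym2-/- embryos 5 and 6 are high for Pou5f1 and cilia markers.

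Sox2 had 30.2, 48.6 and 84.9 CPM in Zmym2-/- embryos, against 14.9, 52.6 and 93.8 CPM in Zmym2+/+ embryos (0.03, 95% interval -0.78 to 0.85, adjusted p = 0.98, edgeR). Sox2 and summed neural plate markers had a Pearson r of 0.93 over the 12 embryos, on the log2 scale and as a description. Sall4 had 81.4, 158 and 346 CPM in Zmym2-/- embryos, against 67.6, 104 and 225 CPM in Zmym2+/+ embryos. Lin28a had 492, 955 and 1322 CPM in Zmym2-/- embryos, against 400, 712 and 1216 CPM in Zmym2+/+ embryos. The log2 difference was 0.50 for Sall4 and 0.28 for Lin28a, neither of which passed, and the genotypes overlapped in both genes.

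The embryo comparison was also made within each sex. Within females the difference was 3.39 for Dppa2 (adjusted p = 0.0951) and 3.28 for Dppa4 (adjusted p = 0.188), and within males it was -0.39 for Dppa2 (adjusted p = 0.733) and -0.41 for Dppa4 (adjusted p = 0.756), by edgeR. For Pou5f1 it was 2.43 in females and -1.12 in males. Utf1 was 1.67 in females and -4.30 in males. The direction thus did not hold within both sexes for these 4 genes. Among males only Zmym2+/+ embryos 1 and 2 were high in trophoblast markers, so genotype and these markers are not separated within males. Among females Zmym2-/- embryo 4 and Zmym2+/+ embryo 4 were high in them. The 3 Zmym2-/- males share the name prefix that no other embryo has, so the genotype difference within males and the contrast of the sexes cannot be told apart from that litter. Within the 2 series of embryo names, H and J, Nanog had 2.04 and 2.26, Dppa2 1.62 and 2.67, and Dppa4 1.21 and 2.74, none passing.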

How the data were processed

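RNA was sequenced from 12 single embryos and 8 line libraries. By the study's methods and the labels, Trimmomatic 0.34 trimming and STAR 2.7.8a alignment to mm10 came first, Picard 2.9.0 marked duplicates, and the authors derived counts with HTSeq; the annotation and strand setting of the counting are not given in the sources used here. The deposited counts were used for all tests; the score columns deposited beside them hold those counts scaled by a library factor, as whole numbers, and were not tested. RPKM values, also deposited by the authors (StringTie 1.3.5), were used for levels between genes. No table held columns of comparisons by the authors.

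Genes with at least 10 summed counts were fitted with edgeR 4.0.16 (TMM, quasi-likelihood, R 4.3.3), separately for embryos, mESCs and EBs, and on the 18926 genes of both line tables for the stage comparisons; calls required an adjusted p (Benjamini-Hochberg, over every gene of the fit) under 0.05. CPM used TMM library sizes, over all 8 line libraries for the lines. Simulated counts were used to test the fits. Alternatives were DESeq2 1.42.0, limma 3.58.1 on log2(RPKM + 0.1), other filters and scalings, replicate blocks, and leaving out each library. Column names carry 1 line number from mESCs to EBs, so same-numbered libraries were read as paired. Their deviations correlated at 0.40 in KO and 0.14 in NT. With 2 libraries a group, the other numbering gives the same value with its sign turned, so this cannot decide the pairing. The fit with the line number as a block was added after seeing the data. No 2 replicates agreed within sampling noise, so each was counted once. The members and lists were chosen with earlier results of these data known. Named genes are the 9 members, Zmym2, up to 4 genes of a list with the smallest p in a comparison, and the genes most like the members by correlation.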

Additional observations from a re-analysis of the deposited data

Results flagged for a closer look

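In 20 groups of 6 embryos checked on the linear CPM scale, 4 had a highest embryo far from the rest. Each was among Zmym2-/- embryos. How often skewed values give this by chance was not tested, and genes flagged in the same embryo are not independent. Pou5f1 was at 364 CPM and Nanog at 17.7 CPM in embryo 6. Utf1 was at 30.5 CPM and Dppa4 at 6.75 CPM in embryo 4. Embryo 6 had 117 CPM of summed motile cilia markers and embryo 4 had 277 CPM of summed trophoblast markers; their part in these values was not tested.

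For Sox2, every Zmym2-/- male was above every Zmym2+/+ male, and every Zmym2-/- female was below every Zmym2+/+ female. The difference of females minus males in the genotype effect was -2.14 on the log2 scale (SE 0.53), a test chosen after seeing the data, with an adjusted p of 0.0688 by edgeR. The 3 Zmym2-/- males share a name prefix, read as a litter, that no other embryo has, so sex and litter cannot be told apart in this test. Summed neural plate markers were at 144 to 250 CPM in Zmym2-/- males, against 46.3 to 107 CPM in Zmym2+/+ males, and at 58.3 to 109 CPM in Zmym2-/- females, against 103 to 183 CPM in Zmym2+/+ females; their part in this value was not tested. No gene of 22729 passed that test, and 5067 had an unadjusted p under 0.05. Utf1 and Dppa2 had differences of 6.02 and 3.82 in the same test, also at an adjusted p of 0.0688.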

How the results depend on the processing

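No called value changed direction in any setting run. Of the 9 genes, 7 were called in mESCs and 4 in EBs, against 3 and 0 with limma on log2(RPKM + 0.1) or log2(RPKM + 1), and 0 and 0 with limma without its filter. Counting only fold changes of at least 4 left 0 in mESCs, 0 in EBs and 1 in each stage comparison. The stage by genotype test called 2 with DESeq2, 1 with filterByExpr, 2 with a line block and 0 to 1 without 1 library; 1 gene, Dppa4, was called in embryos without the 4 high in trophoblast markers and without the 6 high in trophoblast or cilia markers. The cause of these shifts was not tested. Over all genes, mESCs had 3871 called, 2351 to 3858 without 1 library, and 1928, 1705 and 18 under the 3 limma settings. EBs had 1489, against 310, 186 and 17 under limma and 955 when all 8 line libraries shared a fit. Embryos had 119, against 356 with DESeq2, 80 to 152 without 1 embryo, 77 without Zmym2-/- embryos 5 and 6, 384 within males, 15 within females, 1 within the H series, 47 within the J series and 1 with a litter block. The stage by genotype test had 993, against 404 to 1221 without 1 library, 294, 493 and 131 under limma, and 2325 with a line block. A fold change of at least 4 left 783 in mESCs, 318 in EBs, 1309 and 1553 in the KO and NT stage comparisons and 112 by genotype.

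Values that were not called changed sign as follows. In embryos Sox2 was -0.0093 with sex as a covariate, -0.26 with the name series as a covariate, -0.068 with a litter block of 7 embryos, -0.70 within the H series, -1.10 within females and -0.28 without the 4 embryos high in trophoblast markers. Utf1 was 0.072 with the name series, 0.82 within the J series, 1.67 within females and 0.82 without those 4. Sall4 was -0.033 within the H series. Within males Pou5f1 was -1.12, Dppa2 -0.39, Dppa4 -0.41 and Dppa5a -0.46. Pou5f1 was -0.90 without Zmym2-/- embryos 5 and 6. Without the 6 embryos Pou5f1 was -1.54, Nanog -0.33, Sall4 -0.090 and Lin28a -0.082. In EBs Dppa4 was 0.0028 in each limma setting. For stage by genotype Sox2 and Utf1 were each -0.011 with RLE size factors and with DESeq2, and Sox2 was -0.024 and Utf1 -0.023 with filterByExpr, where Dppa5a was -0.0014. Leaving out 1 library gave Sox2 -0.15 to 0.28 in embryos, -0.00045 to 0.061 in mESCs and -0.047 to 0.11 in EBs. The same gave Nanog -0.43 to 0.055 and Dppa4 -0.075 to 0.050 in EBs, Sall4 -0.034 to 0.13 in the NT stage change, and Sox2 -0.075 to 0.080, Utf1 -0.14 to 0.16 and Dppa5a -0.14 to 0.22 for stage by genotype.

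Between KO and NT the replicate numbers pair no samples by any label, and deviations of same-numbered libraries correlated at -0.03 in mESCs and in EBs. With the replicate block 7 of the 9 genes were called in mESCs, 5 in EBs (Sall4 added, 0.23 with an adjusted p of 0.00434), 6 and 6 in the KO and NT stage comparisons, 0 for stage by genotype and 0 in embryos; over all genes 2073 were called in EBs and 49 in embryos. The crossed block, chosen after seeing the data as were the line block and the exclusions by trophoblast markers or by these with cilia markers, called 5084 genes in mESCs and 2243 in EBs. In embryos Dppa2, Dppa4 and Nanog rest on few counts in several libraries, which limits their precision.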

Other observations

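Gdf3, a TGF-beta ligand of pluripotent cells, was higher in Zmym2-/- embryos at 0.487, 1.10 and 3.03 CPM (lowest, median and highest), against 0.0620, 0.120 and 0.350 CPM in Zmym2+/+ embryos. The groups did not overlap, and the log2 difference was 3.24 (SE 0.57, adjusted p = 0.0181, edgeR). Of all genes, 0.524% were called in embryos and 1.18% had groups without overlap. Gdf3 was the only 1 of the 17 network partners and targets called in embryos, from a list chosen with earlier results known. Dppa3 was at 1.75 to 4.31 CPM in Zmym2-/- embryos, against 0.0485 to 1.13 CPM in Zmym2+/+ embryos, with a log2 difference of 2.44 (SE 0.51, adjusted p = 0.0536, edgeR).

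Over all 20 libraries the mean of the 9 genes was most like L1td1 (Pearson r 0.99) and Sptbn4 (r 0.99) among 12360 genes, and over the 12 embryos Pou5f1 was most like Cfc1 (r 0.97) and Wnt8a (r 0.96) among 13830 genes. These are descriptions. The 20 libraries join whole embryos with mESCs and EBs, in which the levels of most of the 9 genes differ widely.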
